A study of Mus musculus with 6 samples.

Results

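The genes described here are imprinted genes of the mouse outside the insulin-like growth factor axis, that is, genes of which cells use mainly the copy inherited from the mother or mainly that from the father. They were chosen by name from a list of 36 symbols, without regard to their values, and each was read by its brightest probe, by the mean over all arrays. Of the 36 genes, 33 had a probe under their current or an older symbol, among 20289 genes on the array, and Rian, Snrpn and Zrsr1 had none. Single-colour Illumina arrays were used on RNA of C57BL6 embryonic fibroblasts (MEFs) made at embryonic day 13.5, all of which stably carried a short hairpin RNA (shRNA). In the control group, with 3 arrays, the hairpin was directed at GFP, and in the other, also with 3, at Ube2o, which encodes a ubiquitin-conjugating enzyme. The submitters ask which genes and pathways respond to the loss of UBE2O. All 3 Ube2o arrays carry the same hairpin name in the deposited table, so loss of Ube2o and other effects of that hairpin cannot be told apart, and the labels do not say whether embryos were pooled. In the Ube2o group the titles say shRNA and a further label says siRNA.

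Imprinting mostly rests on DNA methylation that is laid down in egg or sperm at control regions and kept through later divisions, so that in a cluster of neighbouring genes one parental copy is silent. Many imprinted genes act on growth before birth: several that are read from the father's copy promote it, and several that are read from the mother's copy hold it back. Long noncoding RNAs such as H19, Meg3, Kcnq1ot1 and Airn lie in or beside the control regions, and fibroblasts of the embryo are a common cell for studying these genes. An array of this kind measures the RNA of both parental copies together, so it shows the level of a gene and not which copy made it.

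Ube2o was lower with its shRNA. Its deposited signals were 1875, 1961 and 2091 on the GFP shRNA arrays and 668, 851 and 650 on the Ube2o shRNA arrays (log2 change -1.45, SE 0.116, limma adjusted p = 3.15e-07, n = 3 arrays per group). Median signals of the arrays lay between 153 and 174, and between 43% and 44.9% of 45281 probes lay above the background inferred from the dim probes of each array, at signals of 160 to 180. The 10 fibroblast markers were above background on all 6 arrays, and 1 of them, Pdgfra, was lower with Ube2o shRNA (log2 change -0.76). Of 10 macrophage and leukocyte markers, 3 fell and 0 rose. Beside this and the other marker counts, 2.91% of all genes were called higher and 3.95% lower. The log2 change was -2.17 for Cd74, -0.74 for Aif1 and -0.57 for Cd14. The summed signal of that list was 3016 to 3319 with GFP shRNA and 2044 to 2413 with Ube2o shRNA, and 4 of its 10 genes, Lyz2 among them, were above background on all 6 arrays. Csf1r was above background on 2 arrays of each group and Fcgr1 on 1 array, and Ptprc, Adgre1, Cd68 and Itgam were on 0. Of 6 endothelial and 6 epithelial markers none passed in limma, with 0 of each above background on all arrays. Of the neural and glial markers 1 of 5 rose (Map2), of the skeletal muscle markers 1 of 6 rose (Acta1) and 1 fell (Des), and of the germ cell markers 1 of 6 rose (Ddx4). Nanog, like Ddx4, was above background on all 6 arrays and Pou5f1 on 1 array of each group, and Dazl, Dppa3 and Kit were on 0. Summed signals with GFP and Ube2o shRNA were 1211 to 1359 and 1322 to 1697 for the neural list, 1113 to 1218 and 1029 to 1187 for the muscle list, and 1035 to 1095 and 953 to 1206 for the germ cell list. The part of other cells in the values below was not tested, and in bulk RNA fewer cells of a type and less RNA per cell cannot be told apart.

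Of the 33 imprinted genes, 1 rose with Ube2o shRNA, 0 fell and 32 did not pass. Among all genes by brightest probe 2.91% were called higher and 3.95% lower. The gene that rose was Slc38a4, with a log2 change of 1.03. Among the members 6 had an unadjusted p under 0.05, 4 of them higher, where 19.8% of all genes had one, and in 9 of 33 the normalized values of the groups did not overlap, where this held for 25.6% of all genes. The median log2 change of the 33 genes was 0.043 and that of all genes 0.003. A split by level described the set more fully than a direction: 12 members were above background on all 6 arrays, 9 on some and 12 on none.

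**Figure D1:**
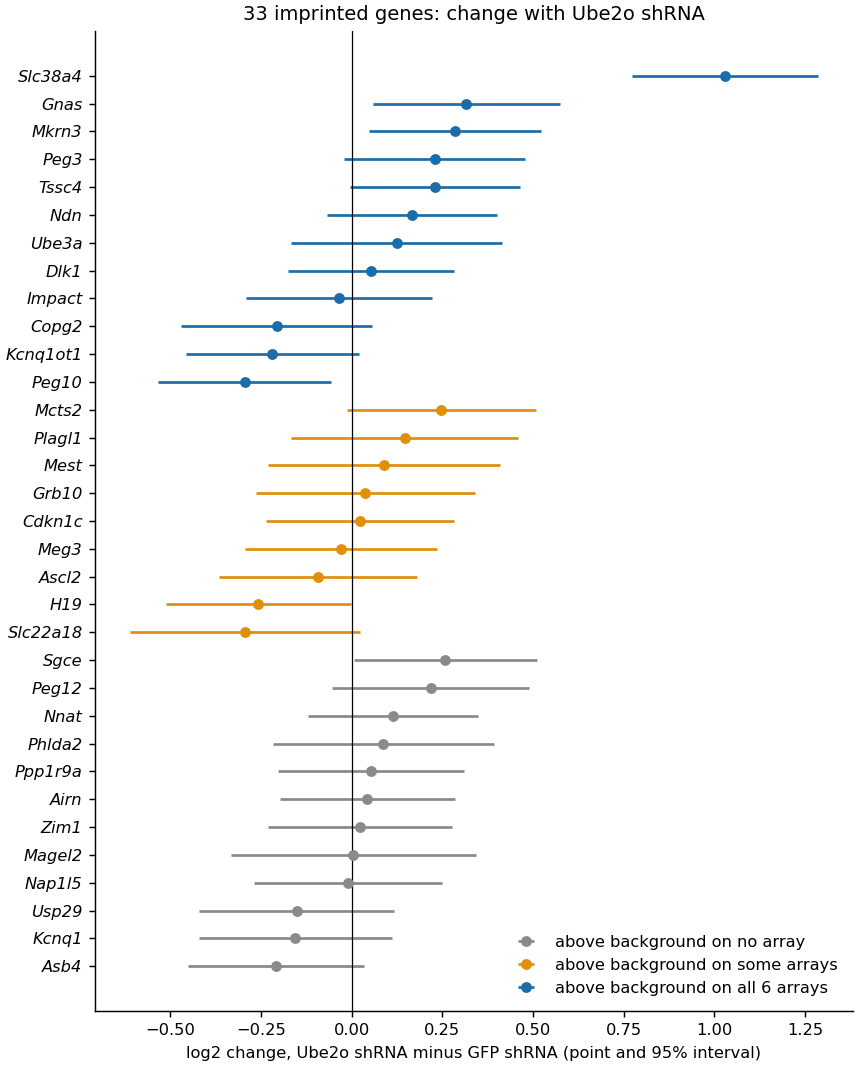
The log2 change (Ube2o shRNA minus GFP shRNA, x axis) of each of 33 imprinted genes, with its 95% interval from limma, 3 arrays per group. Colour gives on how many arrays the gene was above background. Slc38a4 stands at 1.03, and all other points lie between -0.30 and 0.32.

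The promoter windows of the members with a probe past the threshold are shown here, since imprinting mostly rests on methylation of CG dinucleotides at control regions. Whether these windows lie in such regions was not tested. Those of Snrpn, which has no probe under its own symbol, are left out. The windows shown run from 250 bases before to 50 after an annotated start, are from RefSeq (GRCm38.p6), are written 5′ to 3′ on the strand of the gene, and have each CG in capitals. Slc38a4, on the minus strand of chromosome 15, has 3 annotated starts, with windows at chr15:97055907-97056206, chr15:97031164-97031463 and chr15:97020310-97020609. The window of Dlk1 is chr12:109452573-109452872 on the plus strand, and that of Peg3 is chr7:6730370-6730669 on the minus strand.
Slc38a4 first start: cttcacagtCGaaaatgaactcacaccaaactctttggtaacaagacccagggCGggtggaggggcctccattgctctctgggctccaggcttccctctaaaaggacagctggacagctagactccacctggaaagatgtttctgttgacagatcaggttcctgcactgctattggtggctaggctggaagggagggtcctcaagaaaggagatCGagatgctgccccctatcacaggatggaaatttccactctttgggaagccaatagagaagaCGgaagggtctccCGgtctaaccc
Slc38a4 second start: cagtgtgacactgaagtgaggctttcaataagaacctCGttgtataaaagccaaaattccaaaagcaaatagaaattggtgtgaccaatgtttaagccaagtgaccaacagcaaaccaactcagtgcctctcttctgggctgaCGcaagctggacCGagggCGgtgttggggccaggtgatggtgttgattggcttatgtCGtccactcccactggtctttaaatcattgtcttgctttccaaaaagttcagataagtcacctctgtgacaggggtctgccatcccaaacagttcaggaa
Slc38a4 last start: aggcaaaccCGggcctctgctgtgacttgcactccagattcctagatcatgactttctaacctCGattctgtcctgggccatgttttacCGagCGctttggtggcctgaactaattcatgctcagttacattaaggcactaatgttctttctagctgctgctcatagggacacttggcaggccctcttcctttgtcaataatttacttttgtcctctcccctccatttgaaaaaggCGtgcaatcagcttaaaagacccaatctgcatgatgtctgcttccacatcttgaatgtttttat
Dlk1: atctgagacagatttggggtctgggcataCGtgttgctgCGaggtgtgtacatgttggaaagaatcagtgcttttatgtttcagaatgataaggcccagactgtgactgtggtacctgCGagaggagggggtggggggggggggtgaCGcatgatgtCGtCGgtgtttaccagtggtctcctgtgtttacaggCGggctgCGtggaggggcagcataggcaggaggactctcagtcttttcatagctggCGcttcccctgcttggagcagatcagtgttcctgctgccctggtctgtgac
Peg3: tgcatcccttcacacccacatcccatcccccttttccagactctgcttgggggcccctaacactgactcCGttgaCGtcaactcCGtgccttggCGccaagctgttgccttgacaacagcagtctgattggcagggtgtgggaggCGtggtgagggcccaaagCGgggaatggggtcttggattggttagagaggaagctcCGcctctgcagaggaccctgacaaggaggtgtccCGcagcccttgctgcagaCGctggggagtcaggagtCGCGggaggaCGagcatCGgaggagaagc

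Each of the 3 windows of Slc38a4 holds 5 CG dinucleotides, that of Dlk1 holds 9 and that of Peg3 holds 13. Over the 44 windows of 30 listed genes, among them Rian, Snrpn and Zrsr1, which have no probe, the median was 12.5 CG. Over all 32851 windows it was 7. The hexamer TGCCGC, read on both strands, is the core bound by ZFP57, the zinc finger protein that holds imprints through early development, where its CG is methylated. It was in 0 of the 5 windows above, in 25% of the members' windows and in 11.6% of all windows. The hexamer itself holds a CG, and windows of like CG count were not compared. The palindrome GGGGCCCC, the core of the published motif of PLAGL1, was in the window of Peg3, in 6.82% of the members' windows and in 1.08% of all. Windows of a gene with near starts overlap, as do those of Peg3 and Usp29, whose starts face away from each other, so these shares count some letters more than once.

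Slc38a4 encodes a sodium-coupled transporter of neutral amino acids and is read from the father's copy. Its signals were 1616, 1678 and 2017 with GFP shRNA and 2500, 3820 and 3598 with Ube2o shRNA, so the lowest Ube2o array lay above the highest control. On the normalized log2 scale the controls averaged 10.66 ± 0.089 (SD, n = 3) and the Ube2o group 11.69 ± 0.183 (SD, n = 3), a 2.04-fold rise (log2 change 1.03, SE 0.122, 95% interval 0.772 to 1.286, adjusted p = 3.43e-05). Of all genes by brightest probe, 23 had a larger log2 change upward. The call held in each of 16 other settings of the processing, with log2 changes from 0.94 to 1.13 and the highest adjusted p, 0.0162, at a background offset of 16. Slc38a4 has 1 probe, so no further probe bears on the value.

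Of the 6 measured genes on either side of Slc38a4, those that passed were lower. Its neighbour in gene order, Amigo2, an adhesion protein gene, had signals of 507, 595 and 515 with GFP shRNA and 222, 278 and 260 with Ube2o shRNA (log2 change -1.29, SE 0.119, adjusted p = 1.72e-06). On the same side Rapgef3, a cAMP-activated exchange factor gene named after its values were seen, fell by 0.64 (SE 0.114, adjusted p = 0.00206). On the other side lie the sister transporter genes Slc38a2 (log2 change -0.28, SE 0.115, adjusted p = 0.216) and Slc38a1, which was above background on 0 arrays.

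**Figure D2:**
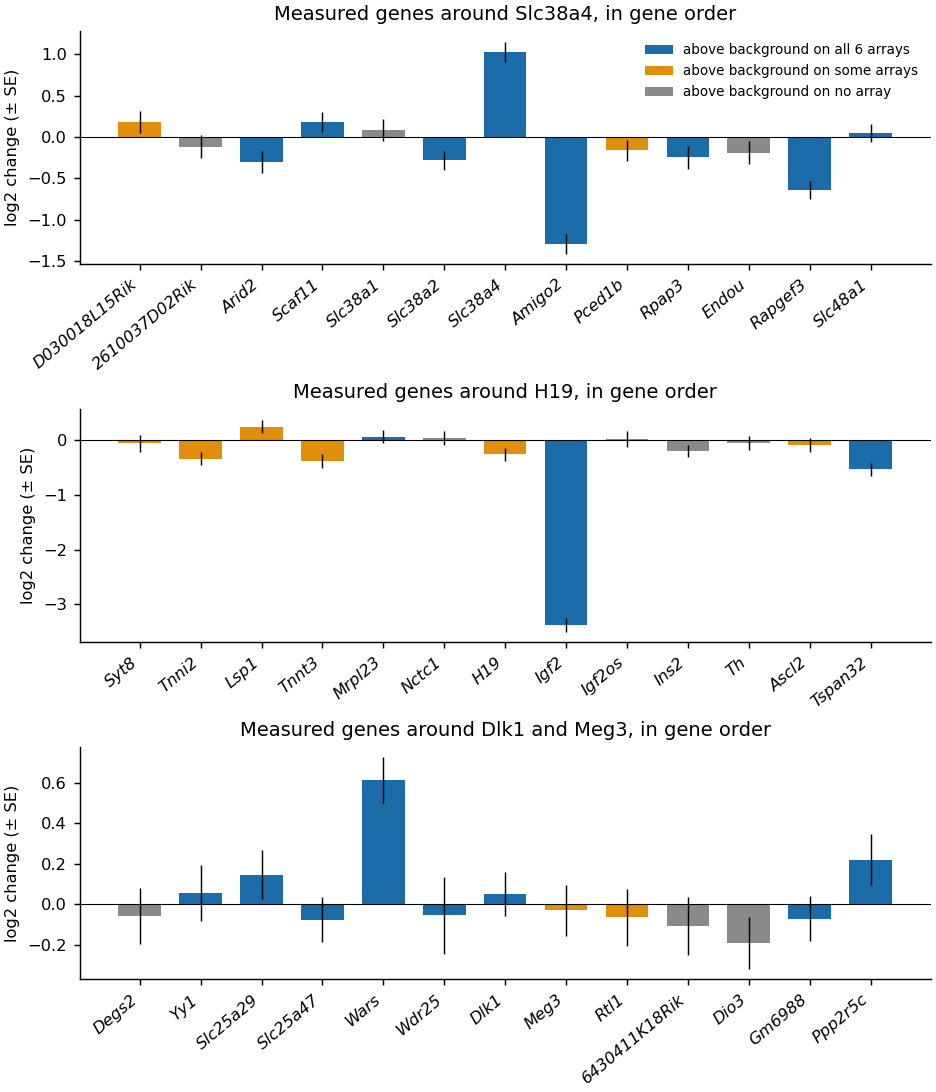
Bars give the log2 change with Ube2o shRNA (y axis, ± SE) of measured genes in their order along the chromosome around Slc38a4, H19 and Dlk1, 6 on either side and evenly spaced, with colour for the number of arrays above background. Slc38a4 stands at 1.03 beside Amigo2 at -1.29, Igf2 at -3.37 beside H19 at -0.26, and Wars at 0.61 near Dlk1 at 0.054.

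The cluster of Dlk1 and Meg3 on chromosome 12 gave a bright gene and a dim one. Dlk1 encodes a membrane protein related to NOTCH ligands that holds back the making of fat cells. By its brightest probe its signals were 33991, 31667 and 35410 with GFP shRNA and 32569, 34530 and 34641 with Ube2o shRNA (log2 change 0.054, SE 0.108, adjusted p = 0.877). With 42 of 45281 probes brighter, that probe read near the top of the scale, where the highest signal of an array was 41200 to 42922. The 43 probes at least as bright as it had log2 changes between -0.127 and 0.142, and 0 of them passed in limma (0 higher, 0 lower). Of all probes, dim ones included, 2.25% were called higher and 2.69% lower. Of genes with a mean signal above background 5.44% were called higher and 7.22% lower. Of the 195 probes at least as bright as the dimmer Dlk1 probe, which is among them, 3 (1.54%) were called. Whether the brightness of a probe limits the change it can show was not tested.

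The other probe of Dlk1 was lower with Ube2o shRNA. Its signals were 21520, 22274 and 22186 with GFP shRNA and 12698, 15550 and 14595 with Ube2o shRNA, and the groups did not overlap. The log2 change was -0.53 (SE 0.111, adjusted p = 0.007), and it did not pass with the offset of 16 (adjusted p = 0.102). Which of the 2 probes of Dlk1 is nearer to the level of its RNA was not tested.

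Meg3, the long noncoding RNA of the mother's copy, was near background, with signals of 187, 184 and 189 with GFP shRNA and 164, 209 and 168 with Ube2o shRNA. It was above background on 3 control arrays and 2 Ube2o shRNA arrays, and its log2 change was -0.029 (SE 0.125, adjusted p = 0.949). The neighbour Wars, the tryptophanyl-tRNA synthetase gene, rose (log2 change 0.61, SE 0.113, adjusted p = 0.00273, and 0.0711 with the offset of 16), its change was 0.38 with probes averaged, and the median log2 change of the 1172 probes of chromosome 12 was 0.094. Rtl1 and Dio3, further imprinted genes of the cluster, were above background on 1 and 0 arrays.

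H19, the noncoding RNA of the mother's copy beside Igf2, was also near background. Its signals were 205, 182 and 213 with GFP shRNA and 155, 181 and 187 with Ube2o shRNA, above background on 3 and 2 arrays, and the groups overlapped. The log2 change was -0.26 (SE 0.121, adjusted p = 0.299), with a 95% interval of -0.512 to -0.003, and that of its dimmer probe -0.19 (adjusted p = 0.543). Igf2, the next measured gene, had signals of 1996, 2225 and 1951 with GFP shRNA against 238, 293 and 236 with Ube2o shRNA (log2 change -3.37, SE 0.127). Both are known to be driven by shared enhancers on opposite parental copies.

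In the Kcnq1 cluster of chromosome 7 none of the 7 measured members passed (0 higher and 0 lower, and 0 with an unadjusted p under 0.05). Tspan32, an imprinted gene beside Ascl2 that is not a member, was lower (log2 change -0.54, adjusted p = 0.0182, and 0.12 with the offset of 16). Among all genes 2.91% were called higher and 3.95% lower, and 19.8% had an unadjusted p under 0.05. Kcnq1ot1, the noncoding RNA that silences its neighbours on the father's copy, had signals of 408, 435 and 453 with GFP shRNA and 298, 404 and 383 with Ube2o shRNA. All 3 Ube2o arrays lay below the controls, with a log2 change of -0.22 (SE 0.113, adjusted p = 0.358). That value comes from a probe annotated under an older symbol, and the other probe of Kcnq1ot1 was above background on 0 arrays. Tssc4 had signals of 521, 566 and 647 against 535, 731 and 602, with a log2 change of 0.23 (SE 0.111, adjusted p = 0.321). The growth-restraining genes of the cluster were dim: Cdkn1c, a cyclin-dependent kinase inhibitor, was above background on 1 control array, and Phlda2, a brake on placental growth, on 0 arrays. Slc22a18, a transporter gene, was above background on 3 control arrays and 1 Ube2o array (log2 change -0.29, SE 0.151, adjusted p = 0.353, with -0.15 and -0.44 on leaving out GFP shRNA replicate 1 or 2), Ascl2, a transcription factor of trophoblast, on 1 array, and the potassium channel gene Kcnq1 on 0.

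**Figure D3:**
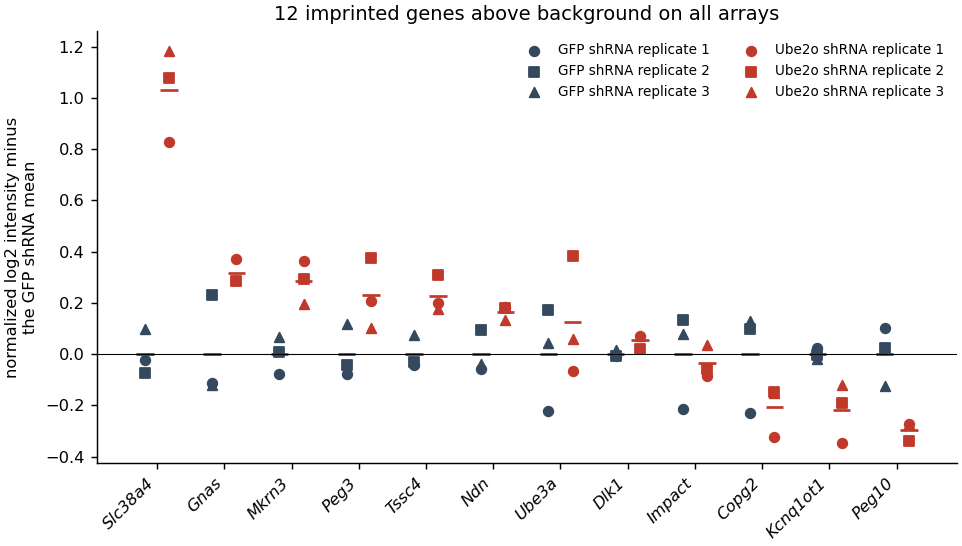
Normalized log2 intensity of each array minus the GFP shRNA mean (y axis) for the 12 imprinted genes above background on all 6 arrays, with 1 point per array and a line at each group mean. The 3 Ube2o arrays of Slc38a4 lie above all its controls, and the group means of the other 11 genes lie between -0.30 and 0.32.

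In the Prader-Willi and Angelman region of chromosome 7 none of the 5 measured members passed by its brightest probe (0 higher, 0 lower). Atp10a, an imprinted gene of the region that is not a member, rose (log2 change 0.63, adjusted p = 0.00239, and 0.0614 with the offset of 16). Among all genes 2.91% were called higher and 3.95% lower. The median log2 change of the 5 genes was 0.166. Ndn, which encodes the growth suppressor necdin, had signals of 4487, 4950 and 4938 with GFP shRNA and 4494, 5768 and 4868 with Ube2o shRNA (log2 change 0.17, SE 0.111, adjusted p = 0.515). Mkrn3, a makorin zinc finger gene, had signals of 274, 298 and 325 against 302, 360 and 314, with normalized groups that did not overlap and a log2 change of 0.28 (SE 0.112, adjusted p = 0.19). Ube3a, encoding a ubiquitin ligase read from the mother's copy in neurons, overlapped between the groups at 810, 1126 and 1114 against 786, 1344 and 968 (log2 change 0.12, SE 0.138, adjusted p = 0.74). Magel2 and Peg12 were above background on 0 arrays.

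Snrpn has no probe under its own symbol, but Snurf, read from the same bicistronic transcript, has 3, and was named after its values were seen. By its brightest probe the signals were 2201, 2170 and 2321 with GFP shRNA and 2273, 3005 and 2590 with Ube2o shRNA (log2 change 0.34, SE 0.11, adjusted p = 0.0924). The next probe gave 502, 490 and 511 against 573, 711 and 658 and passed (log2 change 0.53, SE 0.112, adjusted p = 0.00823, and 0.0958 with the offset of 16). For the dimmest probe the log2 change was 0.23 (adjusted p = 0.344). The normalized groups did not overlap for any of the 3 probes, all higher with Ube2o shRNA.

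Peg3, a zinc finger protein gene of another cluster of chromosome 7, had signals of 1141, 1259 and 1496 with GFP shRNA and 1194, 1730 and 1270 with Ube2o shRNA. Its log2 change by this probe was 0.23 (SE 0.118, adjusted p = 0.357), and the groups overlapped. A dimmer probe of Peg3, at 190, 234 and 224 against 242, 332 and 253, passed with a log2 change of 0.63 (SE 0.138, adjusted p = 0.011). That call was lost with the offset of 16 (adjusted p = 0.123), on leaving out GFP shRNA replicate 1 (0.0835) and on leaving out Ube2o shRNA replicate 2 (0.0633). The other members of the cluster, Usp29 and Zim1, were above background on 0 arrays. Of all 46 probes of members other than the brightest, 2 passed, this one and the dimmer probe of Dlk1, where 2.25% of all probes were called higher and 2.69% lower.

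**Figure D4:**
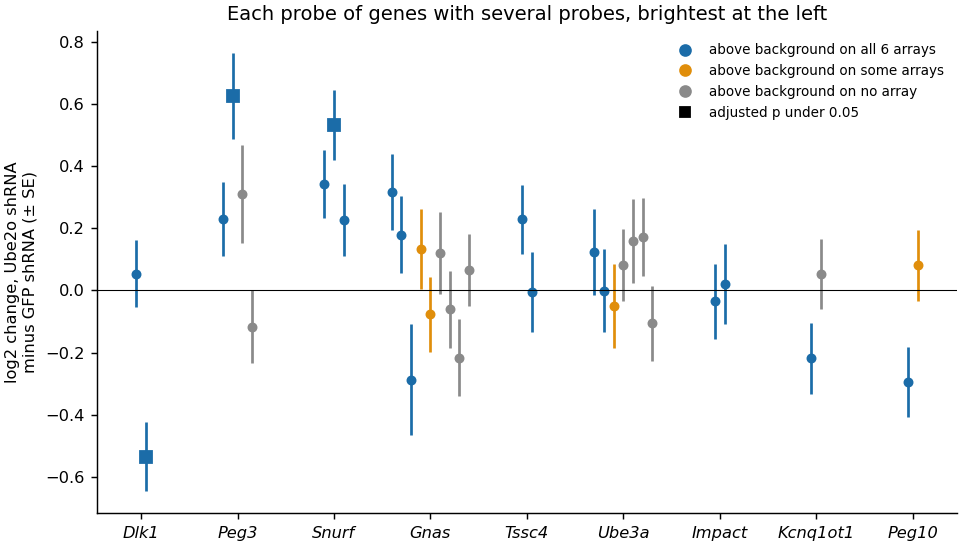
The log2 change (y axis, ± SE) of every probe of 9 genes with several probes, ordered from bright to dim within a gene. Colour gives the arrays above background and squares mark an adjusted p under 0.05: Dlk1 at -0.53, Peg3 at 0.63 and Snurf at 0.53.

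Gnas, the gene for the stimulatory G protein alpha subunit with several imprinted transcripts, had signals of 2436, 3196 and 2753 with GFP shRNA and 2941, 3560 and 3117 with Ube2o shRNA by its brightest probe. Its normalized groups did not overlap, and the log2 change was 0.32 (SE 0.122, 95% interval 0.059 to 0.574, adjusted p = 0.178). It passed with no background correction (adjusted p = 0.033), in the series matrix values (0.037) and with trended, robust moderation (0.0388), while with all its probes averaged the log2 change was 0.019 (adjusted p = 0.941). The next probes of Gnas differed in sign, with log2 changes of 0.18 (adjusted p = 0.534) and -0.29 (adjusted p = 0.475).

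On chromosome 6, Peg10, a gene derived from a retrotransposon and needed in placenta, had signals of 349, 356 and 346 with GFP shRNA and 257, 304 and 290 with Ube2o shRNA. All 3 Ube2o arrays were below all controls, and the log2 change was -0.30 (SE 0.113, adjusted p = 0.174). With only the probes above background on all 6 arrays tested, Peg10 passed as lower (adjusted p = 0.0411) and Mkrn3 as higher (adjusted p = 0.0457). The other probe of Peg10 had the opposite sign, at 0.081, and with its probes averaged the log2 change of Peg10 was -0.11 (adjusted p = 0.574). Sgce, which shares its promoter region with Peg10 and encodes a sarcoglycan, was above background on 0 arrays, as were Ppp1r9a and Asb4. Pdk4, a kinase gene that restrains pyruvate oxidation and a neighbour of this cluster, fell by 1.93 (SE 0.115, adjusted p = 7.03e-09), and with its probes averaged by 0.98 (adjusted p = 4.46e-05). Mest, a hydrolase gene used as a marker of the father's copy, was above background on 1 array, while Copg2, a coat protein gene beside it, had signals of 286, 359 and 384 against 243, 324 and 298 (log2 change -0.21, SE 0.125, adjusted p = 0.456, with -0.32 on leaving out GFP shRNA replicate 1).

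Impact, a regulator of the GCN2 amino acid sensor, did not pass. Signals were 1730, 2325 and 2412 with GFP shRNA and 1647, 2170 and 2024 with Ube2o shRNA, with a log2 change of -0.036 (SE 0.121, 95% interval -0.291 to 0.22). Its dimmer probe, above background on all 6 arrays too, gave 0.02 (adjusted p = 0.967). The remaining lone genes were dim: Plagl1, a zinc finger transcription factor that acts on other imprinted genes, was above background on 1 array, Grb10, an adaptor that damps insulin receptor signalling, on 2, Mcts2 on 1, and Nnat and Nap1l5 on 0. Airn, the noncoding RNA that silences Igf2r on the father's copy, was above background on 0 arrays, and Igf2r itself had a log2 change of 0.039 (SE 0.115, adjusted p = 0.924).

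For the 11 genes above background on all arrays that did not pass, the 95% intervals reached from -0.534 to 0.574 on the log2 scale. These intervals are not adjusted for the number of probes tested. Those of Peg10 (-0.534 to -0.057), Mkrn3 (0.048 to 0.521) and Gnas (0.059 to 0.574) kept to a single direction, though none passed after adjustment. The other intervals held both directions, so changes within them were not told apart from none. In 8 of the 12 genes above background on all arrays the normalized groups did not overlap. This held for 39.4% of all genes with a mean signal above background, of which 5.44% were called higher and 7.22% lower. Those shares are over 10579 genes, a looser set than the 9325 genes above background on all 6 arrays. The 12 genes on no array had signals of 122 to 175, and for them, as for the 9 near background, a change at low level could have been missed. Of 18 measured genes read from the father's copy 8 were above background on all arrays and the median log2 change was 0.102. Of 12 read from the mother's copy 2 were, with a median of -0.061, so the medians rest on genes of unlike level.

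Several of these genes belong to a network described in mice in which imprinted genes are expressed together, in part through PLAGL1. Of its 16 genes, all measured, 1 rose (Slc38a4), 1 fell (Igf2) and 14 did not pass, beside 2.91% and 3.95% of all genes, and the median log2 change was 0.046. Dcn, the proteoglycan gene in that network, had signals of 6799, 7434 and 6529 with GFP shRNA and 3708, 6520 and 4051 with Ube2o shRNA (log2 change -0.46, SE 0.14, adjusted p = 0.0746). Its normalized groups overlapped.

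Among 38 other imprinted genes 2 rose and 3 fell, where 2.91% of all genes were called higher and 3.95% lower. Ampd3, encoding an AMP deaminase, had signals of 810, 1062 and 1097 with GFP shRNA and 505, 585 and 563 with Ube2o shRNA (log2 change -0.81, SE 0.119, adjusted p = 0.00035, and -0.43 with its probes averaged, adjusted p = 0.0211). Atp10a, a phospholipid transporter gene of the Angelman region, rose by 0.63 (SE 0.114, adjusted p = 0.00239), from 408, 490 and 522 to 585, 685 and 656. Tspan32, a tetraspanin gene beside Ascl2 in the Kcnq1 cluster, fell by 0.54 (adjusted p = 0.0182). Pon2, a paraoxonase gene near Peg10, fell by 0.45 (adjusted p = 0.0213), and the noncoding RNA Peg13 rose by 0.54 (adjusted p = 0.0315). All but Ampd3 lost the call at the offset of 16 (Atp10a at an adjusted p of 0.0614), and Tspan32, Pon2 and Peg13 also when some single arrays were left out. For Trappc9, the gene within which Peg13 lies, the log2 change was -0.28 (adjusted p = 0.201), and H13, Blcap and Herc3, the hosts or partners of Mcts2, Nnat and Nap1l5, had log2 changes of -0.029, 0.049 and -0.23, none past the threshold.

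Of 34 measured factors that set, hold or erase imprints, 0 rose and 2 fell in limma. Among all genes 2.91% were called higher and 3.95% lower. Without background correction 3 of the factors rose and 2 fell, as in the authors' normalized values. Dnmt3l, a cofactor of the methyltransferases that lay down imprints in germ cells, had signals of 293, 240 and 273 with GFP shRNA and 170, 192 and 168 with Ube2o shRNA (log2 change -0.86, SE 0.136, adjusted p = 0.000712). It was above background on 2 of the 3 Ube2o shRNA arrays. Dnmt3b, a methyltransferase for new methylation, had 361, 348 and 373 against 237, 314 and 261 (log2 change -0.46, SE 0.116, adjusted p = 0.0258), and did not pass with the offset of 16 (adjusted p = 0.133), without replicate 1 or 3 of either shRNA, or with its probes averaged (log2 change -0.17, adjusted p = 0.348). Dnmt1, the maintenance methyltransferase, Trim28, the partner of ZFP57, and Zfp57 itself had log2 changes of 0.13, 0.073 and -0.076, and Uhrf1, which guides DNMT1, one of 0.30 (adjusted p = 0.162). The median of the 34 genes was 0.053.

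**Figure D5:**
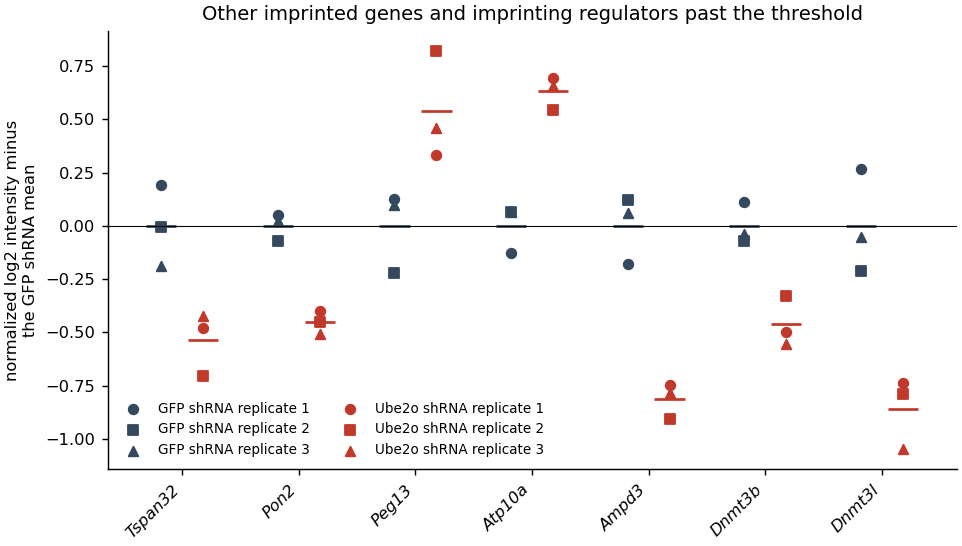
Normalized log2 intensity of each array minus the GFP shRNA mean (y axis) for the 5 other imprinted genes and 2 regulators past the threshold, with 1 point per array and a line at each group mean. The genes were chosen for passing, so the gap between their groups is a description.

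Counts among genes beside the imprinted ones depended on the processing. Of 159 neighbours, the nearest 5 measured genes on each side of a member that were on no list of imprinted genes used here, 1 rose (Wars) and 7 fell. Among all genes 2.91% were called higher and 3.95% lower, and the difference was not tested. The 159 hold some transcripts of imprinted loci, such as Snurf, Gnasas1 and Igf2os. Without background correction 7 rose and 11 fell, as in the authors' normalized values, and when only probes above background on all 6 arrays were tested 8 rose and 10 fell. Besides Pdk4 and Amigo2, the falls held Vstm2a, near Grb10 (log2 change -1.28, SE 0.112, adjusted p = 9.23e-07), and Npepl1, an aminopeptidase gene near Gnas (-0.68, SE 0.116, adjusted p = 0.0014), whose call was lost at the offset of 16. The median log2 change of the neighbours was 0.024.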

How the data were processed

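Per the labels' protocols, RNA was purified on RNeasy columns and labelled as biotinylated cRNA with a TotalPrep kit. The authors deposited linear probe intensity, not normalized between arrays, and a series matrix of log2 values that have the same quantiles on every array. Scanner software and any earlier background step are not stated. Arrays were grouped by their titles. The submitters call the MEFs of each group independent, but separate embryos are not mentioned, so the p-values rest on the spread among these arrays, which may be technical.

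Intensity was corrected with normexp (saddle, offset 50), quantile normalized and taken to log2. All 45281 probes were tested two-sided with limma 3.58.1 (R 4.3.3; lmFit, then eBayes), and p-values were adjusted by Benjamini and Hochberg across them, with 0.05 as the threshold. The offset compresses changes of dim genes. A probe was above background with p under 0.05 against the mode of an array's log2 signal and the spread below it. Probes were named from the platform annotation, updated through the RefSeq table of GRCm38.p6 (35784 probes with 1 symbol, 0 with several and 9497 with none here). The number of arrays limits the precision. The members, lists and alternatives were chosen with earlier results of these data known. Named were all members, the further imprinted genes and regulators past the threshold, up to 4 neighbours in each direction with the smallest p, and the host or partner genes and well-known regulators beside them, which were picked with their values in view.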

Additional observations from a re-analysis of the deposited data

How the results depend on the processing

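The count of imprinted genes called higher was 1 or 2, and of those called lower 0 or 1, depending on the processing. By brightest probe, or with probes averaged, Slc38a4 was called higher in all 16 other settings. Read in this way, no member was called lower except Peg10 with the filter on all 6 arrays. The dimmer probe of Dlk1 kept its call as lower in 14 of 15 other settings and lost it at the offset of 16. With no background correction 2 members were higher, as in the series matrix values and with trended, robust moderation (Gnas the second each time), and with the filter on all 6 arrays 2 were higher and 1 lower. Of 553 values of single genes and probes under other settings, 500 stayed on their side of the threshold in the same direction, 41 lost and 5 gained a call, and 7 turned sign without a call in either setting. The latter were Dlk1 at -0.0404 with chromosome medians subtracted and -0.24 with probes averaged, Impact at 0.0319 and 0.0026 without GFP shRNA replicate 2 or 3, Ube3a at -0.005 without Ube2o shRNA replicate 2, and Meg3 at 0.0785 without Ube2o shRNA replicate 3 and 0.0263 with probes averaged. With 1 array left out the log2 change ranged from -0.1419 to 0.0319 for Impact, from -0.005 to 0.2192 for Ube3a and from -0.1448 to 0.0785 for Meg3. Averaging probes brought Kcnq1ot1 to -0.083, Copg2 to -0.081 and Tssc4 to 0.11, and median scaling brought Peg3 to 0.13, Ndn to 0.09 and Tssc4 to 0.14. Median scaling also brought Impact to -0.12 and Ube3a to 0.029.

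The other counts moved more. Probes called numbered 2236 as reported, 3966 with no background correction, 3941 in the series matrix values, 584 with the offset of 16, 3512 with the filter on 3 arrays and 3677 with that on all 6, and ranged from 1445 to 1682 with 1 array left out. Other imprinted genes higher were 0 with the offset of 16 and 1 with median scaling, and those lower were 5 with no background correction, 1 with the offset of 16 and 5 with the filter on all 6 arrays. Regulators higher were 3 in the series matrix values and with no background correction, 1 with the filter on 3 arrays, and 2 with that on all 6 and with trended moderation, while those lower were 1 with the offset of 16, with the filter on all 6 arrays and with probes averaged. Neighbours higher were 7 in the series matrix values and with no background correction, 0 with the offset of 16, 6 with the filter on 3 arrays, 8 with that on all 6, 6 with trended moderation and 5 with probes averaged, and those lower were 11, 11 and 4 in the first 3 of these settings. With 1 array left out the counts ranged over 1 to 2 other imprinted genes higher, 1 to 2 other imprinted genes lower, 1 to 2 regulators lower, 1 to 2 neighbours higher and 5 to 7 neighbours lower. Arrays of the same number did not deviate together (correlations of 0.00949, -0.0297 and 0.0162). The replicate block gave 2139 probes called and 2 neighbours higher, and changed no count of members. The cause of these shifts was not tested, apart from the fewer probes tested under the filters. Dim genes limit what could be seen: 12 members lay above background on no array.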
